A study of Rattus norvegicus with 12 samples.

Results

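Ionotropic glutamate receptor subunits of the kainate class (Grik1 to Grik5) and of the AMPA class (Gria1 to Gria4) were followed in the fifth lumbar (L5) dorsal root ganglion (DRG) of the rat. The subunits were found by gene symbol, as rows whose symbol equals that of a subunit, and 8 of the 9 were found in this way among the 16621 symbols that both expression tables share. Gria2 appeared only in a row that the assembly joined with the microRNA gene Mir2985, so its values are given apart as those of the joined row. The series holds 4 groups of 3 polyadenylated RNA libraries, all taken on day 14 after spinal nerve ligation (SNL), a model of neuropathic pain in which the L5 spinal nerve is tied tightly. SNL ganglia came from the ligated side and Control ganglia from the intact contralateral side, and the labels do not say whether both sides came from the same rats. In the other pair all ganglia were SNL ganglia, injected 7 days before SNL with an adeno-associated virus (AAV) vector of serotype 6 that encoded either an shRNA against the long noncoding RNA Neat1 or a scrambled control shRNA. All rats were Sprague Dawley, 5 to 6 weeks old by the study's methods and male by the labels, where the methods name both sexes. Control was thus the contralateral side of an injured animal and not a ganglion of an uninjured rat, and the AAV pair has no uninjured group.

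Glutamate is the transmitter that primary sensory neurons release onto the spinal cord, and these neurons also carry glutamate receptors of their own. Kainate receptors are tetramers. GluK1, GluK2 and GluK3 (Grik1 to Grik3) can form channels by themselves, whereas the high affinity subunits GluK4 and GluK5 (Grik4, Grik5) need one of them as a partner. GluK1 is known as the prominent kainate receptor subunit of small sensory neurons of the DRG and their C fibres. AMPA receptors are assembled from GluA1 to GluA4 (Gria1 to Gria4), and GluA2, whose RNA is edited, makes the channel nearly impermeable to calcium.

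Levels are given as FPKM, fragments scaled to the length of the transcript and to the number of mapped fragments, with 1 value for each group as the authors computed it over its 3 libraries. FPKM are per length, so levels of different subunits can be set side by side. Values of single libraries were not used here, so no error, test or p-value accompanies any ratio, the ratios have no replicate check, and higher and lower describe the 4 group values alone. A ratio past 1.5-fold, the fold threshold of the study after SNL, was counted. The same threshold was used here for the AAV pair, where the study called genes by p-value and named no fold threshold. In bulk ganglia, fewer cells of a type and less RNA per cell cannot be told apart.

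The ganglion's sensory neuron markers were present in Control, with Prph, the most abundant, at 1734 FPKM in SNL and 1643 in Control. Of the 6 measured in that list, 5 were past 1.5-fold lower in SNL, against 16.2% of all measured symbols. The nociceptor marker Calca had 25.2 FPKM in SNL and 807 in Control. The spinal cord list summed to 6.49 FPKM in SNL and 5.39 in Control over 14 genes. Slc5a7 was its most abundant gene, with 3.25 FPKM in SNL and 1.68 in Control, and Olig2 was listed at 0 in all 4 groups. Neat1, the targeted gene, stood at 294 FPKM in SNL and 141 in Control, but at 374 FPKM in the group labelled Neat1 shRNA and 355 in the control AAV group, a ratio of 1.05. These values come from 1 unnamed row at the Neat1 location in bulk ganglia. By qPCR the study reports that its Neat1 shRNA vector lowered Neat1 in the L5 DRG after SNL. The level in these libraries does not show this, so that group is named here by its label alone. The median log2 ratio over all symbols with at least 1 FPKM in at least 1 group was 0.01 for SNL over Control (11416 symbols) and 0.00 for the group labelled Neat1 shRNA over the control AAV group (11441 symbols). The 2 tables were assembled and normalized separately, so ratios were taken within each, and levels set side by side across the tables carry that limit.

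Promoters of the 3 subunits past 1.5-fold after SNL, Grik1, Grik4 and Grik2, are shown because their levels, as deposited, went in different directions. RefSeq promoter sequences of the build GRCr8, with 250 bases before and 50 after the start of the gene, matched 6 of the 9 subunits (Grik1 to Grik5 and Gria4). They are printed 5′ to 3′ along the strand of the gene, which is the minus strand for each, at chr11:41056454-41056753 (Grik1), chr8:52102014-52102313 (Grik4) and chr20:54415234-54415533 (Grik2), with motif matches in capitals.
Grik1: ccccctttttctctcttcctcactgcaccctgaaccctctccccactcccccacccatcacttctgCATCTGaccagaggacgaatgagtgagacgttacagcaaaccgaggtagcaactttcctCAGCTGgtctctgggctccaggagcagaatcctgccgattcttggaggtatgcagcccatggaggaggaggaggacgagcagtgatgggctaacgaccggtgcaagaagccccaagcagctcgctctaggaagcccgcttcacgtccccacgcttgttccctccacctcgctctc
Grik4: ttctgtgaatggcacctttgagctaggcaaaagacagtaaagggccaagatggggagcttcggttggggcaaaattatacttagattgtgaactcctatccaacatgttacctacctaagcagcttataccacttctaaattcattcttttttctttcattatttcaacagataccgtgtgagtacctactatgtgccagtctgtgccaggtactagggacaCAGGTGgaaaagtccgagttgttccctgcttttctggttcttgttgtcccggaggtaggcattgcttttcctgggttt
Grik2: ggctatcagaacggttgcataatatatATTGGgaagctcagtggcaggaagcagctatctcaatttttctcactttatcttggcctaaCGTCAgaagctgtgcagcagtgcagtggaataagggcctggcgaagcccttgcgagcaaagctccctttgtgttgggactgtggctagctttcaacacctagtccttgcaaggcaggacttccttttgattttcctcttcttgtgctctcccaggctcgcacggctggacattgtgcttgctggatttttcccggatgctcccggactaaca

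The motifs were searched on both strands, and no matches overlapped. The AP-1 site TGANTCA, in which N is any base, occurs in 7.33% of all 33469 promoters and matched none of the 6. TGACG, the core of the cyclic AMP response element, (21.2% of all promoters) matched once in Grik2, and CCAAT (37.5%) matched once each in Grik2 and Gria4. The E-box CANNTG (72.1%) matched in both places capitalised in Grik1, in the 1 place in Grik4, and also in Grik3 and Gria4. The GC box GGGCGG (33.1%) matched 6 times in Grik3 and 2 times in Grik5, whose windows held 82.3% and 69% G and C against a median of 51.7% over all promoters. The windows of Grik1, Grik4 and Grik2 held 58.7%, 44% and 50.3% G and C. A match is a description of these letters and not evidence of a site in use.

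After SNL, Grik1 was lower by a wide margin, Grik4 was moderately lower as deposited, and Grik2 was moderately higher. Of the 8 subunits, 1 was past 1.5-fold higher in SNL, against 19.2% of all measured symbols, and 2 were past it lower, against 16.2% of all measured symbols. The remaining 5 (Grik3, Grik5, Gria1, Gria3 and Gria4) lay within 1.5-fold. The median log2 ratio of the 8 subunits was −0.15. These counts sit close to the background of the table, which held many genes on either side, so the description turns on single subunits. At 2-fold, 0 subunits were higher, against 10.6% of all measured symbols, and 1 was lower, against 8.54%.

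Grik1, which encodes GluK1, had 1.92 FPKM in SNL against 53.3 FPKM in Control, 27.8-fold lower (log2 ratio −4.80). Its row spans chr11:31426626-31828719 in the rn5 build that the tables use. In Control it stood above every other kainate or AMPA subunit, and in SNL only the joined Gria2 row stood lower. Among 10020 symbols with at least 1 FPKM in all 4 groups, 4 had a lower log2 ratio of SNL over Control, and the same held for 67 of the 11416 symbols measured in SNL or Control.

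Grik2 encodes GluK2, the core subunit most widely studied in the brain. Its level was 11.1 FPKM in SNL and 6.95 FPKM in Control, 1.60-fold higher (log2 ratio 0.68, chr20:55396188-56127933). Grik3 encodes GluK3, the remaining core subunit. Its level was nearly identical at 2.58 FPKM in SNL and 2.59 FPKM in Control (log2 ratio −0.01, or 0.84 on the scale of the pan-neuronal list, chr5:147265435-147485781). Grik2 stood above Grik3 in both groups, while Grik1 was the highest of the core subunits in Control and stood below Grik2 in SNL. Grik1 and Grik3 were close in SNL, and with no spread their order there is not known. The level of Grik1 divided by that of Grik2 was 0.172 in SNL and 7.68 in Control.

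Grik4 encodes GluK4, a partner subunit of high affinity. Its level was 5.84 FPKM in SNL against 9.54 FPKM in Control, 1.63-fold lower (log2 ratio −0.71, chr8:45277601-45708388), a direction that turned to 0.14 on the scale of the pan-neuronal list described below. Grik5 encodes GluK5, the partner subunit with the broadest expression. Its level was 15.6 FPKM in SNL against 12.0 FPKM in Control, a ratio of 1.30 (log2 ratio 0.38, chr1:83137702-83207631). The subunits nearest to the threshold were thus Grik2 and Grik4, just past it, and Grik5 and Gria3, which did not reach it. Grik5 exceeded Grik4 by a ratio of 2.67 in SNL and 1.26 in Control.

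**Figure D1:**
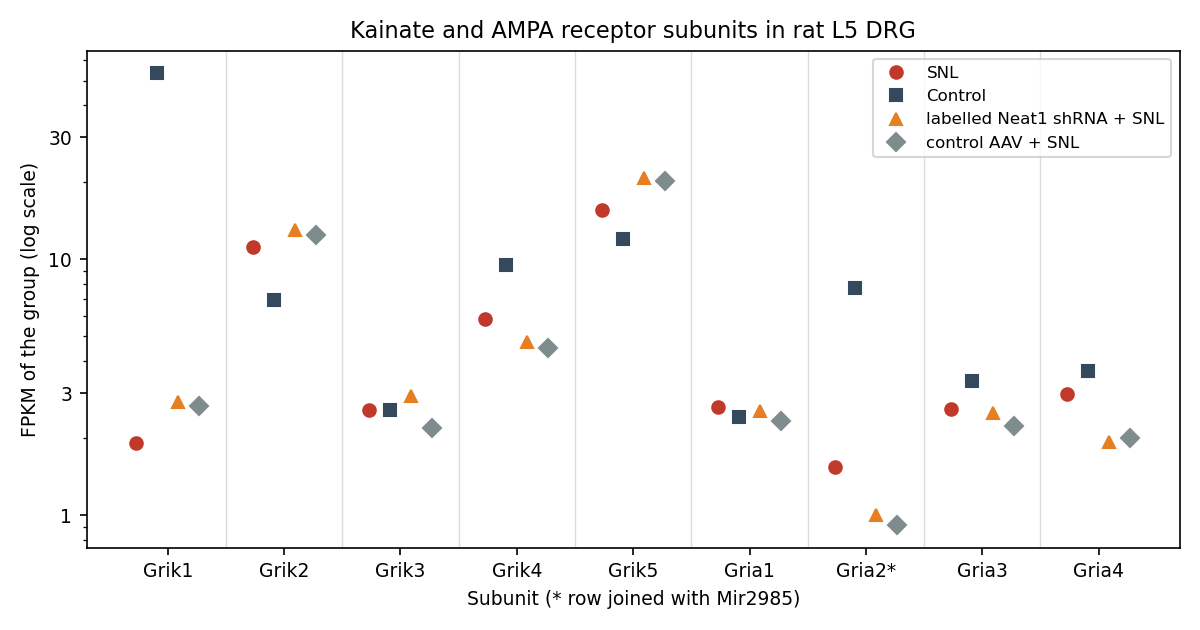
FPKM (log scale) of each kainate and AMPA subunit in SNL, Control, the group labelled Neat1 shRNA and the control AAV group, 1 point for each group with no error because 1 value for each group was used; the asterisk marks the joined Gria2 row. Grik1 stands at 53.3 FPKM in Control and between 1.92 and 2.78 FPKM in the 3 groups of SNL ganglia, of which the AAV pair comes from a table normalized on its own.

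The AMPA subunits were at low levels, and none of the 3 found by symbol passed 1.5-fold. Gria1 encodes GluA1, a subunit of calcium permeable AMPA receptors when GluA2 is missing. Its level was 2.64 FPKM in SNL and 2.42 FPKM in Control (log2 ratio 0.12, chr10:42257590-42573559). Gria3 encodes GluA3. Its level was 2.60 FPKM in SNL and 3.35 FPKM in Control (log2 ratio −0.37, or 0.48 on the scale of the pan-neuronal list, chrX:127655810-127922244). Gria4 encodes GluA4, a subunit with fast kinetics. Its level was 2.98 FPKM in SNL and 3.68 FPKM in Control (log2 ratio −0.30, or 0.55 on the scale of the pan-neuronal list, chr8:1540717-2069670). These levels lay close together, and with no spread at hand their order within a group cannot be told apart from noise.

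The joined row of Gria2 and Mir2985 (chr2:198988310-199113365) had 1.54 FPKM in SNL against 7.75 FPKM in Control, 5.02-fold lower (log2 ratio −2.33). Fragments of Gria2 and of the microRNA gene cannot be told apart in it. With the row counted as Gria2, 3 of 9 subunits were past 1.5-fold lower in SNL and the median log2 ratio was −0.30. Divided by the summed level of Gria1, Gria3 and Gria4, the joined row was at 0.188 in SNL and 0.820 in Control.

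**Figure D2:**
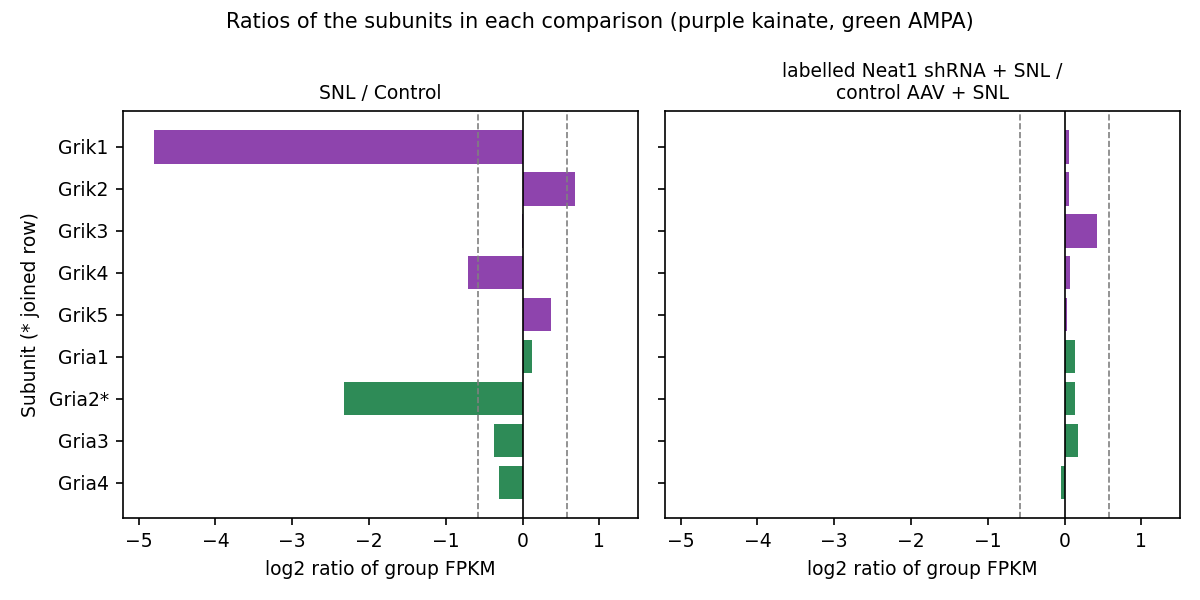
Log2 ratio of group FPKM for each subunit, SNL over Control on the left and the group labelled Neat1 shRNA over the control AAV group on the right, with dashed lines at 1.5-fold. Bars of Grik1 (−4.80) and the joined Gria2 row (−2.33) are the longest on the left, those of Grik3, Grik4, Gria3 and Gria4 turn to the right on the scale of the pan-neuronal list, and no bar on the right passes 1.5-fold.

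The composition of each family, expressed as the percent of the summed FPKM that each subunit contributes, does not depend on how a table was scaled. Grik1 made up 5.19% of the kainate sum in SNL and 63.2% in Control. Grik5 made up 42.0% in SNL and 14.2% in Control, and Grik2 made up 30.1% in SNL and 8.23% in Control. Grik4 contributed 15.8% in SNL and 11.3% in Control, and Grik3 contributed 6.95% in SNL and 3.07% in Control. Grik1 was thus the largest contributor in Control, and Grik5 followed by Grik2 were the largest in SNL.

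The kainate sum was 37.1 FPKM in SNL and 84.4 FPKM in Control, and without Grik1 it was 35.1 FPKM in SNL and 31.1 FPKM in Control. The other 4 subunits together thus summed to slightly more in SNL, and the kainate sum was lower in SNL only with Grik1 in it. The core subunits Grik1 to Grik3 summed to 15.6 FPKM in SNL and 62.9 FPKM in Control, 4.02-fold lower. The high affinity subunits Grik4 and Grik5 summed to 21.4 FPKM in SNL and 21.5 FPKM in Control. Core over high affinity subunits was therefore at a ratio of 0.731 in SNL and 2.92 in Control, that is, the obligate partners exceeded the core subunits in SNL and were exceeded by them in Control. Core subunits without Grik1 summed to 13.7 FPKM in SNL and 9.54 FPKM in Control.

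The AMPA sum with the joined row was 9.76 FPKM in SNL and 17.2 FPKM in Control, and without it 8.22 FPKM in SNL and 9.45 FPKM in Control. The joined Gria2 row made up 15.8% of the AMPA sum in SNL and 45.1% in Control, so that the share of every other AMPA subunit was larger in SNL. Gria4 made up 30.5% in SNL and 21.4% in Control, Gria1 27.1% in SNL and 14.1% in Control, and Gria3 26.6% in SNL and 19.5% in Control. The kainate sum was 3.79 times the AMPA sum in SNL and 4.91 times the AMPA sum in Control.

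**Figure D3:**
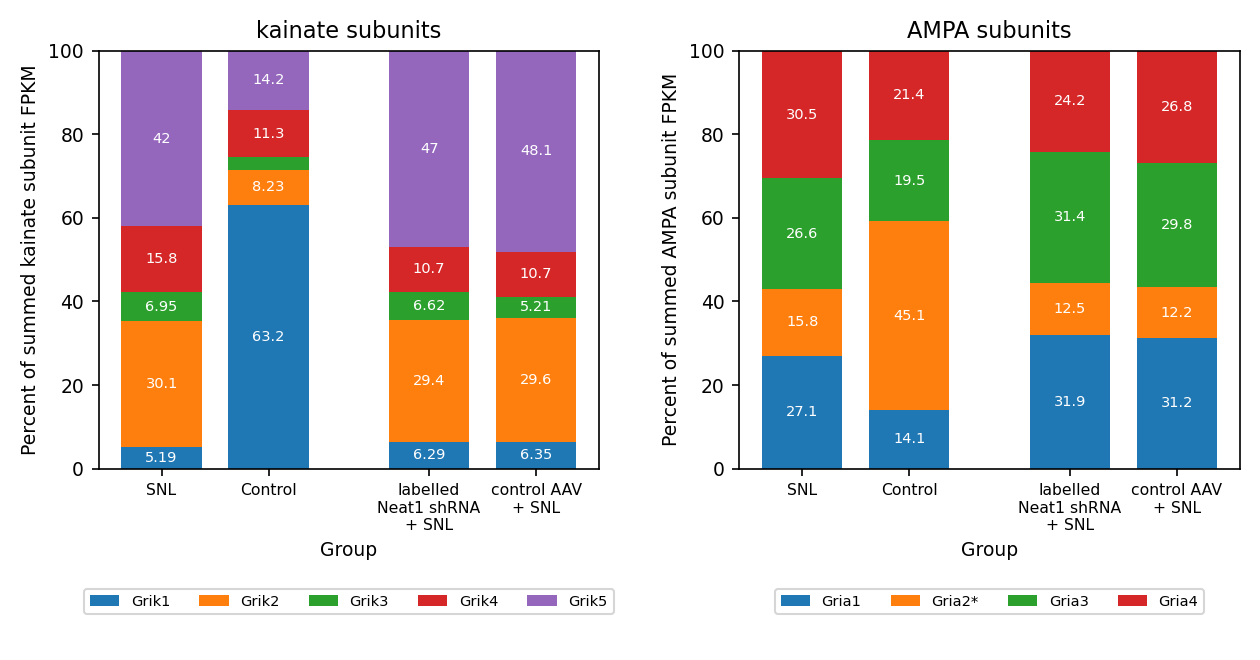
Percent of the summed FPKM of the kainate family (left) and the AMPA family (right, asterisk for the joined Gria2 row) that each subunit contributed in SNL, Control, the group labelled Neat1 shRNA and the control AAV group. Grik1 takes 63.2% of the kainate bar in Control and between 5.19% and 6.35% in the other 3 groups, and the joined Gria2 row takes 45.1% of the AMPA bar in Control and between 12.2% and 15.8% in the others, with the AAV pair from a table of its own.

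In the AAV pair, where both groups were SNL ganglia, no subunit passed 1.5-fold. Counts were 0 of 8 higher in the group labelled Neat1 shRNA, against 1.55% of all measured symbols, and 0 of 8 lower, against 3.95% of all measured symbols. The median log2 ratio of the 8 subunits was 0.07, or −0.018 on the scale of the pan-neuronal list, where the small ratios of Grik1, Grik2, Grik4 and Grik5 also turned below 0. The level of Neat1 in the group labelled Neat1 shRNA was 1.05 times that of the control AAV group. Whether a direction below is that of a knockdown cannot be told from this bulk value and was not tested.

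Grik1 had 2.78 FPKM in the group labelled Neat1 shRNA and 2.67 FPKM in the control AAV group, a ratio of 1.04. Grik2 had 13.0 FPKM in the group labelled Neat1 shRNA and 12.5 FPKM in the control AAV group, also a ratio of 1.04. Grik3 stood furthest apart of the subunits, with 2.93 FPKM in the group labelled Neat1 shRNA and 2.19 FPKM in the control AAV group, a ratio of 1.33 (log2 ratio 0.42). The high affinity subunits were close in both groups. Grik4 had 4.74 FPKM in the group labelled Neat1 shRNA and 4.51 FPKM in the control AAV group, and Grik5 had 20.8 FPKM in the group labelled Neat1 shRNA and 20.2 FPKM in the control AAV group.

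Among the AMPA subunits of the AAV pair, Gria1 had 2.56 FPKM in the group labelled Neat1 shRNA and 2.33 FPKM in the control AAV group. Gria3 had 2.52 FPKM in the group labelled Neat1 shRNA and 2.23 FPKM in the control AAV group. Gria4 had 1.94 FPKM in the group labelled Neat1 shRNA and 2.01 FPKM in the control AAV group. The log2 ratios of these subunits lay between −0.05 and 0.18, and that of the joined Gria2 row was 0.14, with 1.01 FPKM in the group labelled Neat1 shRNA and 0.915 FPKM in the control AAV group.

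Family sums in the AAV pair were likewise close. The kainate sum was 44.2 FPKM in the group labelled Neat1 shRNA and 42.1 FPKM in the control AAV group, and the AMPA sum with the joined row was 8.03 FPKM in the group labelled Neat1 shRNA and 7.48 FPKM in the control AAV group. Core over high affinity kainate subunits was at 0.733 in the group labelled Neat1 shRNA and 0.700 in the control AAV group. Grik5 made up 47.0% of the kainate sum in the group labelled Neat1 shRNA and 48.1% in the control AAV group. Grik2 made up 29.4% in the group labelled Neat1 shRNA and 29.6% in the control AAV group, and Grik1 6.29% in the group labelled Neat1 shRNA and 6.35% in the control AAV group. Set beside SNL from the other table, which was normalized on its own, these shares lay nearer to those of SNL (5.19% for Grik1, 30.1% for Grik2 and 42.0% for Grik5) than to those of Control.

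By Euclidean distance over both log2 ratios, among the 10020 symbols with at least 1 FPKM in all 4 groups, the 3 symbols nearest to Grik1 were Calca, Muc15 and Nrn1. Grik1 is the subunit with the largest ratio and with the highest mean level in the SNL and Control pair. Calca encodes the nociceptor peptide CGRP and lay at a distance of 0.21, with 25.2 FPKM in SNL against 807 FPKM in Control, and 32.1 FPKM in the group labelled Neat1 shRNA against 31.5 FPKM in the control AAV group. The level of Grik1 divided by that of Calca was 0.0761 in SNL and 0.0661 in Control, a likeness that the choice of Calca as the nearest symbol fixes. Muc15, a membrane mucin, lay at 0.38, with 1.60 FPKM in SNL against 40.5 FPKM in Control. Nrn1 encodes neuritin, a small protein of growing neurites, and lay at 0.57, with 8.24 FPKM in SNL against 221 FPKM in Control. The distance is a likeness of only 2 ratios over 4 groups.

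Markers of several cell types moved with the comparison of SNL and Control, where 16.2% of all measured symbols were past 1.5-fold lower in SNL and 19.2% higher. Of 8 measured nociceptor markers, 8 were past 1.5-fold lower in SNL (median log2 ratio −2.17), and the list summed to 273 FPKM in SNL and 1600 FPKM in Control. Mrgprd, a receptor of nonpeptidergic nociceptors, had 0.192 FPKM in SNL against 22.0 FPKM in Control. Of 10 markers of large myelinated sensory neurons, 6 were lower (median −1.20), among them the proprioceptor marker Pvalb with 16.0 FPKM in SNL against 265 FPKM in Control. Sensory neuron markers were lower in 5 of 6 (median −2.00), with the nociceptor sodium channel gene Scn11a at 1.06 FPKM in SNL against 73.0 FPKM in Control. Grik1, with its log2 ratio of −4.80, lay below the medians of all these lists. Single markers in them lay lower still, with Mrgprd at −6.84, Scn11a at −6.10 and Calca at −5.00.

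Pan-neuronal markers were mixed, with 3 higher and 8 lower of 15, against 19.2% and 16.2% of all measured symbols, and a median of −0.85. The list summed to 9589 FPKM in SNL and 8588 FPKM in Control, and its most abundant gene, the tubulin gene Tubb3, had 3689 FPKM in SNL against 2403 FPKM in Control, so its sum and its median point in opposite directions. Scaled so that the median of this list is 0, the log2 ratios were −3.94 for Grik1, 1.53 for Grik2, 0.84 for Grik3, 0.14 for Grik4, 1.23 for Grik5, 0.98 for Gria1, 0.48 for Gria3, 0.55 for Gria4 and −1.48 for the joined Gria2 row. On that scale 4 subunits were past 1.5-fold higher, against 69.2% of all measured symbols, and 1 lower, against 5.31%. Grik1 and the joined Gria2 row were the rows that kept a lower level in SNL.

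Markers of immune cells and genes of axon injury were higher in SNL, where 19.2% of all measured symbols were past 1.5-fold higher and 16.2% lower. All 8 measured macrophage markers (median log2 ratio 2.09, summed 214 FPKM in SNL and 41.1 FPKM in Control) were past 1.5-fold higher. So were the 8 measured of 9 axon injury genes (median 4.83, or 4.36 without the filter), with Vip at 152 FPKM in SNL against 1.31 FPKM in Control. Of 10 lymphocyte markers, the 5 measured were past 1.5-fold higher (median 2.58, or 1.95 without the filter). Cd3e, Cd3d, Cd3g and Cd2 passed the filter through SNL alone, which favours a higher call, as did Itgam, Cd163, Sprr1a and Ecel1. Cd4 had 27.5 FPKM in SNL and 6.48 FPKM in Control. Myelinating Schwann cell markers had a median of −0.23, with 1 of 9 past 1.5-fold higher, and satellite glia markers a median of 0.10, with 3 higher and 2 lower of 8. Fibroblast and vessel markers were higher in 4 of 8 (median 0.66). Whether the makeup of the ganglion bears on the levels of the receptor subunits was not tested.

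In the AAV pair the medians of the neuronal lists were 0.03 for nociceptor markers (0 of 7 past 1.5-fold), 0.08 for pan-neuronal markers (1 of 14 higher), 0.18 for markers of large myelinated sensory neurons (0 of 10 past 1.5-fold) and 0.16 for sensory neuron markers. In that last list 2 of 6 were past 1.5-fold higher. Over all measured symbols 1.55% were past it higher in the group labelled Neat1 shRNA and 3.95% lower. Scn11a had 4.30 FPKM in the group labelled Neat1 shRNA against 2.19 FPKM in the control AAV group, and the transcription factor gene Drgx had 8.74 FPKM in the group labelled Neat1 shRNA against 5.71 FPKM in the control AAV group. Of 10 lymphocyte markers, 9 were past 1.5-fold lower on the side labelled Neat1 shRNA (median −2.02, summed 55.6 FPKM in the group labelled Neat1 shRNA and 125 FPKM in the control AAV group), and Schwann cell markers had a median of 0.57 with 4 of 9 higher. Both measured skeletal muscle markers were also higher, Mylpf at 1.63 FPKM in the group labelled Neat1 shRNA against 0.318 FPKM in the control AAV group and Acta1 at 5.94 FPKM in the group labelled Neat1 shRNA against 3.83 FPKM in the control AAV group. No subunit differed by more than 1.33-fold between these groups.

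**Figure D4:**
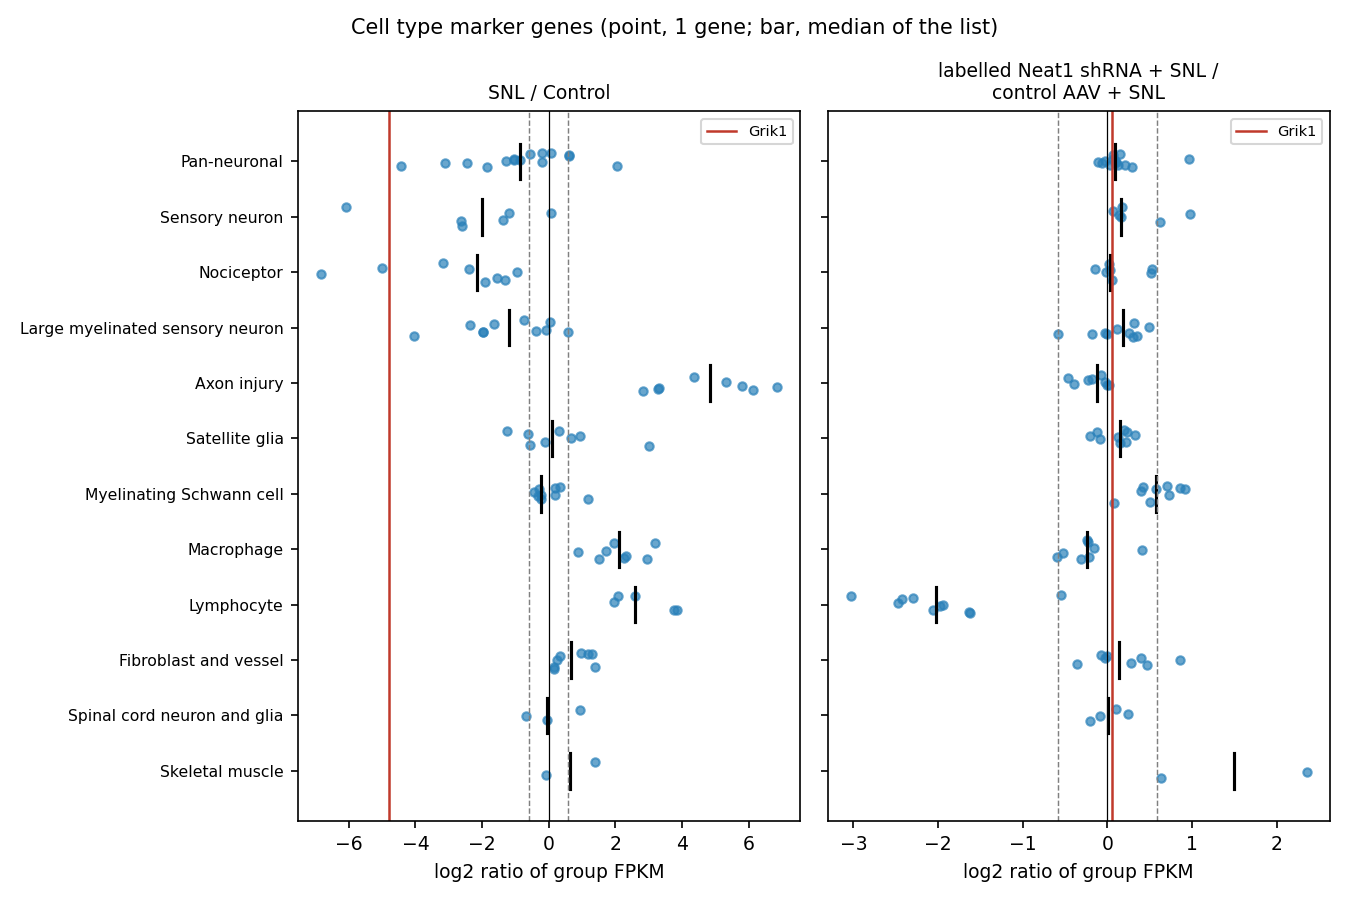
Log2 ratio of group FPKM for each measured marker gene (points) with the median of its list (black bars), SNL over Control on the left and the group labelled Neat1 shRNA over the control AAV group on the right. The red line marks Grik1, at −4.80 on the left, below the nociceptor median of −2.17 but above the single nociceptor markers Mrgprd (−6.84) and Calca (−5.00), and at 0.06 on the right. Dashed lines mark 1.5-fold.

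The wider glutamate system was read from 66 genes in 7 lists. In the comparison of SNL and Control 62 were found by symbol and 48 were measured at 1 FPKM or more in at least 1 group. Of these, 6 were past 1.5-fold higher in SNL and 23 lower, against 19.2% and 16.2% of all measured symbols. On the scale of the pan-neuronal list the split became 18 higher and 11 lower, against 69.2% and 5.31% of all measured symbols. Of 61 found in the AAV pair 46 were measured. Among them 2 were past 1.5-fold higher in the group labelled Neat1 shRNA and 0 lower, against 1.55% and 3.95% of all measured symbols. The study's own lists for this pair, made without a fold threshold, also include genes within 1.5-fold. Grin1 (ratio 1.23) and Olfm1 (1.24) are listed there as higher and Slc1a1 (0.743) as lower. The directions and counts below are those of FPKM as deposited unless the scale is named, with these shares as their background. A gene under 1 FPKM in 1 group passed the filter through the other group alone, which favours a call toward that other group.

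The auxiliary subunits that modify the receptors themselves went both ways. Neto1, a kainate receptor auxiliary subunit, had 2.40 FPKM in SNL against 0.648 FPKM in Control, 3.70-fold higher, and its relative Neto2 had 3.26 FPKM in SNL against 7.04 FPKM in Control, 2.16-fold lower and still lower on the scale of the pan-neuronal list, where it no longer passed 1.5-fold. AMPA receptor auxiliary and trafficking genes had a median log2 ratio of −0.47 (0.38 on the scale of the pan-neuronal list), with 1 higher and 5 lower of 11. Cacng5, a transmembrane AMPA receptor regulatory protein, had 0.351 FPKM in SNL against 9.45 FPKM in Control, 26.9-fold lower. Cacng2, which encodes stargazin, had 4.18 FPKM in SNL against 19.2 FPKM in Control, 4.60-fold lower. Shisa7 had 4.24 FPKM in SNL against 1.38 FPKM in Control, 3.08-fold higher, and the secreted AMPA receptor partner Olfm1 had 80.6 FPKM in SNL against 168 FPKM in Control.

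Scaffold and sorting genes had a median of −0.52 (0.33 on the scale of the pan-neuronal list), with 1 higher and 6 lower of 14. The neuronal pentraxins, secreted proteins that cluster AMPA receptors, stood out, with Nptx1 at 1.73 FPKM in SNL against 60.7 FPKM in Control (35.2-fold lower), Nptx2 at 15.4 FPKM in SNL against 46.8 FPKM in Control, and their receptor Nptxr at 25.9 FPKM in SNL against 53.5 FPKM in Control. Nsf, an ATPase that binds GluA2, had 76.1 FPKM in SNL against 179 FPKM in Control, and Sdcbp, the most abundant gene of the list, had 143 FPKM in SNL against 251 FPKM in Control. Nptx1 was also the gene of this list past 1.5-fold in the AAV pair, with 3.06 FPKM in the group labelled Neat1 shRNA against 1.51 FPKM in the control AAV group, 2.03-fold higher.

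NMDA and delta receptor subunits, the remaining ionotropic families, had a median of −0.77 (0.08 on the scale of the pan-neuronal list, −0.41 without the filter), with 2 higher and 3 lower of 6 measured. Grin3b passed the filter through SNL alone and Grin3a through Control alone, which favours the calls they received. Grin1, the subunit that NMDA receptors require, had 10.8 FPKM in SNL against 32.3 FPKM in Control (log2 ratio −1.59), and Grin3a had 0.487 FPKM in SNL against 1.42 FPKM in Control. Grin2b, with 3.48 FPKM in SNL against 1.26 FPKM in Control, and Grin3b, with 1.71 FPKM in SNL against 0.675 FPKM in Control, were higher. Of this list, Grin2d was past 1.5-fold in the AAV pair, with 1.18 FPKM in the group labelled Neat1 shRNA against 0.732 FPKM in the control AAV group. Metabotropic receptors were lower in 3 of 3 measured, also on the scale of the pan-neuronal list. Grm4 had 0.603 FPKM in SNL against 5.90 FPKM in Control, Grm7 had 2.95 FPKM in SNL against 9.13 FPKM in Control and Grm8 had 1.08 FPKM in SNL against 3.08 FPKM in Control.

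Genes of glutamate synthesis, loading and uptake had a median of −0.54 (0.31 on the scale of the pan-neuronal list), with 1 higher and 5 lower of 10. The vesicular transporter genes Slc17a7 and Slc17a8 had 39.4 and 0.357 FPKM in SNL, against 115 and 1.42 FPKM in Control. Gls2, a glutaminase, had 8.05 FPKM in SNL against 19.4 FPKM in Control, and the uptake carrier Slc1a1 was higher with 5.83 FPKM in SNL against 2.70 FPKM in Control. Glul, the glutamine synthetase gene of glia, had 141 FPKM in SNL and 122 FPKM in Control. The enzymes that edit glutamate receptor RNA were within 1.5-fold as deposited, Adarb1 at 15.4 FPKM in SNL and 17.4 FPKM in Control and Adar at 18.1 FPKM in SNL and 17.7 FPKM in Control, whereas 2 of 2 were past 1.5-fold higher on the scale of the pan-neuronal list (median 0.78).

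**Figure D5:**
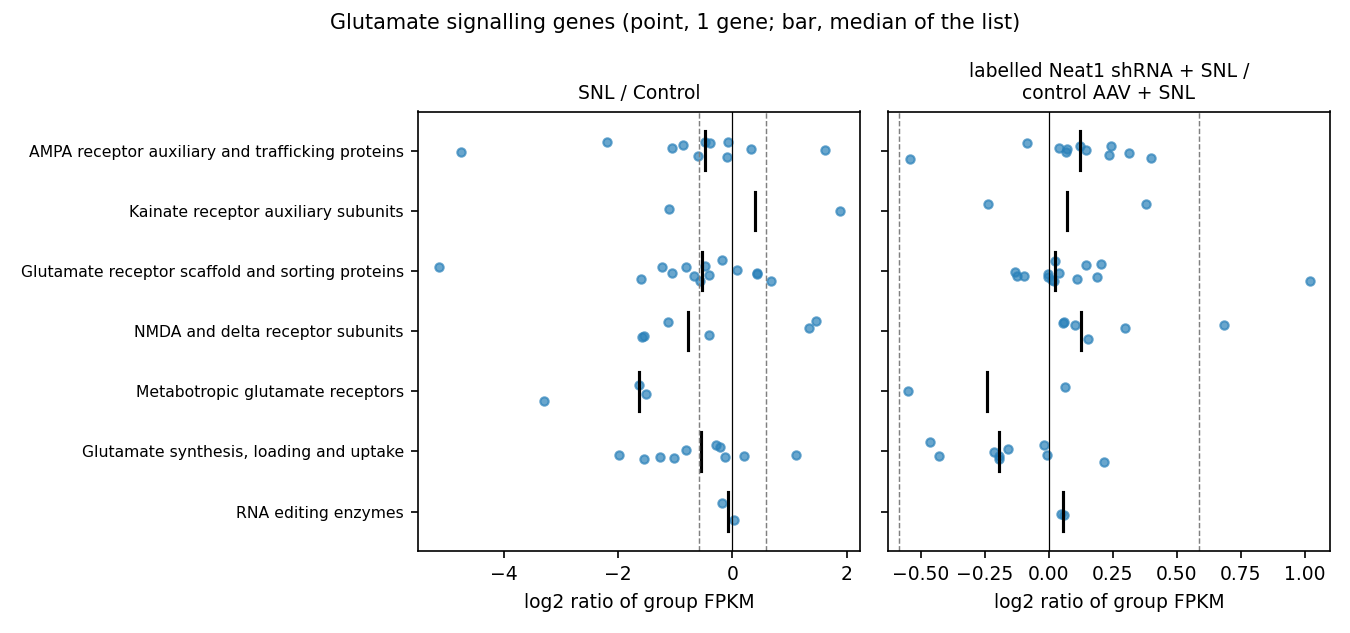
Log2 ratio of group FPKM for each measured gene of the 7 glutamate signalling lists (points) with the median of its list (black bars), SNL over Control on the left and the group labelled Neat1 shRNA over the control AAV group on the right, on axes of different range. On the left 23 of 48 genes lie below the lower dashed line of 1.5-fold and 6 above the upper one. Of all measured symbols, 16.2% and 19.2% lie there. On the scale of the pan-neuronal list the counts are 11 and 18, against 5.31% and 69.2% of all measured symbols. On the right 2 of 46 lie above the upper line and 0 below the lower one, against 1.55% and 3.95% of all measured symbols.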

How the data were processed

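Total RNA of the L5 DRG was used for stranded polyadenylated libraries sequenced as paired reads of 75 bp. According to the methods, the authors aligned the reads to rn5 with RefSeq genes and calculated FPKM with Cufflinks, and the submitters' processing notes name both. The deposited tables (28578 and 28745 rows) hold 1 FPKM value for each group, made by the authors over 3 libraries, and their own log2 fold change, test statistic, p-value, q-value and call, which were not used. Depth is unknown, and in rows of one length class the smallest FPKM times kilobases lay between 0.0152 and 0.0176 across groups.

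For each symbol the row with the highest mean FPKM was taken. Ratios and log2 ratios were computed with Python 3.11.15, numpy 2.4.6, pandas 2.3.3 and matplotlib 3.10.9, counted past 1.5-fold, and filtered at 1 FPKM in at least 1 group for lists, and the code was tested on simulated data. The members and the gene lists were chosen with earlier results of these data known. Named genes were all subunits, up to 4 genes with the largest ratio and the most abundant gene of each pathway list, up to 2 and the most abundant of each marker list, and the 3 nearest symbols. List genes were matched by symbol or by synonyms of the RefSeq GRCr8 table, used for names only, and promoters came from RefSeq GRCr8. Alternatives were pseudocounts of 0.1 and 1, no filter, a fold of 2, sums over rows and scaling to the median of all symbols or of the pan-neuronal list. Scaling of the pathway lists, the joined row counted as Gria2 and the AMPA sum without it were added after seeing the data. Rat genome coordinates of the tables are rn5.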

Additional observations from a re-analysis of the deposited data

Results flagged for a closer look

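In the AAV pair the assembly gave Grik2 a further row at the same locus (chr20:55396189-56127644), which the report did not use and which had 0.875 FPKM in the group labelled Neat1 shRNA against 0.0613 FPKM in the control AAV group. It was picked out because it lies outside the rows compared and exceeds the level of the control AAV group. Added to the main row of Grik2, it changed no count of subunits past 1.5-fold.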

How the results depend on the processing

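No paired analysis was possible because the tables carry 1 value for each group and no replicate columns, and leaving out each replicate could not be run for the same reason. In SNL against Control, a threshold of 2-fold left 0 subunits higher and 1 lower, where 10.6% and 8.54% of all symbols were past it. Scaling to the pan-neuronal list gave 4 subunits higher and 1 lower, where 69.2% and 5.31% of all symbols were past 1.5-fold, a median of 0.70, a reversed Grik4 (0.14), 18 glutamate pathway genes higher and 11 lower, and a reversed median of the NMDA and delta list (0.081). That scaling also turned the sign of values that had not passed 1.5-fold, those of Grik3 (0.84), Gria3 (0.48) and Gria4 (0.55) and the medians of the kainate (0.84), AMPA (0.55), AMPA auxiliary (0.38), scaffold (0.33), synthesis (0.31) and RNA editing (0.78) lists. Counting the joined row as Gria2 gave a median of −0.30. Without the filter the skeletal muscle list had a median of −0.063 in SNL against Control. In the AAV pair the pathway genes higher in the group labelled Neat1 shRNA were 6 without the filter, 1 at 2-fold and 1 with a pseudocount of 1, and those lower were 4 without the filter and 2 on the scale of the pan-neuronal list. The changes under scaling, filter and threshold follow from how these settings are built. Of the values that answer a comparison, 57 moved little and 13 moved. Of those of single genes, lists or shares, 215 moved little, 44 moved and 3 reversed. Not all that moved are named here. Pseudocounts of 1 gave −4.22 for Grik1 and −1.78 for the joined Gria2 row. In SNL against Control they also gave medians of 1.23 for lymphocyte markers and 0.063 for the kainate auxiliary list. Missing library values and unknown depth limit every ratio, most of all those of rows under 1 FPKM.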
